A study of Mus musculus with 14 samples.

Results

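The genes described here are 10 genes that mark macrophages, the resident phagocytes of the testis: C1qa, C1qb, C1qc, Csf1r, Cd68, Adgre1, Lyz2, Cd14, Mrc1 and Cx3cr1. They were picked by name as macrophage markers, with earlier results of these data known but no measured value in the rule, and all 10 had a row in both count tables, among 32667 gene entries for spermatogonia (Spg) and 36888 for spermatocytes (Spc). The tables hold RNA sequencing counts of 14 libraries of sorted mouse germ cells, with 3 libraries of Spg and 4 of Spc from Dnmt3CKO/KO animals (KO), which lack the DNA methyltransferase DNMT3C in every cell, and as many from wild-type animals (WT). KO and WT stand for the libraries labelled so, and the mice were littermates on a C57Bl6/J background. Spg came from mice aged 14 days and were sorted as living cells that carried EpCAM and lacked β2-microglobulin, whereas Spc came from mice older than 20 days and were sorted by exclusion of a dead-cell dye and by DNA content, with no surface marker. Germ cells of KO males arrest in meiosis, so that the DNA content gate need not hold the same mixture of stages in both genotypes.

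Testis macrophages live in the interstitium beside the Leydig cells and on the wall of the seminiferous tubules, outside the epithelium that holds the germ cells. They depend on the receptor CSF1R and its ligands for survival, take up dying cells and debris through scavenger and pattern recognition receptors, digest them in lysosomes, and secrete C1q, the recognition protein of the classical complement pathway. None of the 10 is a usual marker of germ cells.

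The C1q chains are encoded side by side on chromosome 4 of GRCm38 on the minus strand, with C1qb at 136880129 to 136886187, C1qc at 136889804 to 136893065 and C1qa at 136895917 to 136898803. The gaps between them measure 3616 and 2851 bases. Mrc1 lies on chromosome 2 (14229392 to 14332057), Cx3cr1 on chromosome 9 (119901616 to 120069879), Lyz2 on chromosome 10 (117277331 to 117282321), Cd68 on chromosome 11 (69664213 to 69666153), and Adgre1 on chromosome 17 (57358691 to 57483527). No exon of the 10 genes overlapped an exon of another gene on the same strand. Lyz2 has a close paralog, Lyz1, 5475 bases away, with which it can share reads. Lyz1 itself had at most 51 counts in any library, against up to 2285 for Lyz2.

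The promoters of C1qb, Cd68 and Mrc1 are shown as examples from members that rose in KO Spc, a secreted, a lysosomal and a cell surface protein. Each promoter shown holds the letters marked below. That of Lyz2, which rose too, holds none and is not shown. The sequences are the 250 bases before the RefSeq start (GRCm38.p6), written 5′ to 3′ on the strand of the gene, and the capitals mark GAGGAA or its reverse complement TTCCTC, the core of the motif of PU.1, the transcription factor (gene Spi1) that specifies myeloid cells.
C1qb promoter, chr4:136886201-136886450, minus strand: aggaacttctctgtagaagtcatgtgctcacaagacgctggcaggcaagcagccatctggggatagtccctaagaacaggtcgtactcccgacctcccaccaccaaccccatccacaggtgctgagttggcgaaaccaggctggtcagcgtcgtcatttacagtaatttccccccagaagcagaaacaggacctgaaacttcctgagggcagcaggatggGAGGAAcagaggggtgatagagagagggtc
Cd68 promoter, chr11:69666171-69666420, minus strand: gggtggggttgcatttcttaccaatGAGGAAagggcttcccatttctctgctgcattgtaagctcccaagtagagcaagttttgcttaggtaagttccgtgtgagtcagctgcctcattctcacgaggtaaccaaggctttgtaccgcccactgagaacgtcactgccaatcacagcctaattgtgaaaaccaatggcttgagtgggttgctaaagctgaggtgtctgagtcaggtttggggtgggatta
Mrc1 promoter, chr2:14229164-14229413, plus strand: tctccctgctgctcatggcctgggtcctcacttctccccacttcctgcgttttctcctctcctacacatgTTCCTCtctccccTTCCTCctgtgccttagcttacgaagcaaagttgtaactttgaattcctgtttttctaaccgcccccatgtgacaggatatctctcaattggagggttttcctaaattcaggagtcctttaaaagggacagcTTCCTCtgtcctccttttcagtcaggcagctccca
RefSeq windows were at hand for 6 members, and 4 of them held the letters on either strand: C1qb, C1qc and Cd68 at 1 place each and Mrc1 at 3. Those of Lyz2 and Cx3cr1 held none. Of all 32851 promoter windows of this length, 23.3% held the letters, so a match describes the sequence and is no evidence of binding. Windows for C1qa, Csf1r, Adgre1 and Cd14 were not used here.

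Total counts per library ran from 40555726 to 53323651. Counts of Dnmt3c itself, 116, 58 and 67 in KO and 89, 65 and 53 in WT Spg, and 55, 56, 52 and 57 in KO and 28, 11, 19 and 25 in WT Spc (replicates in order), were not lower in KO, and since the sources used here do not say which exons the allele removes, they do not check the labels. Among Spc libraries, replicates 1 and 4 of each genotype were far more alike than other pairs (chi-square per degree of freedom 11.6 in KO and 14.9 in WT, against 129 to 286 for the other pairs) while still above sampling noise, and results were also computed with them summed. The stage markers differed between the Spc genotypes. Summed pachytene markers (5 genes) held 6780 to 8770 unscaled CPM (counts-per-million of the library total) in WT and 237 to 478 in KO Spc, summed spermatid markers 37.5 to 1180 and 0.148 to 7.37, and summed spermatogonial markers 22.4 to 230 and 454 to 1340. In Spg too, the pachytene sum was higher in each WT library (247 to 1780 unscaled CPM) than in each KO library (136 to 169), though 0 of the 5 genes were called. The labels do not say whether replicates are separate animals, and the paper's figures give fewer biological replicates of Spc than the 4 libraries per genotype used here. The p-values therefore measure the spread between these libraries.

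In Spg the genes other than Mrc1 had few counts in both genotypes, at most 56 in a library. Summed with Mrc1, all 10 genes held 6.03 to 11.3 unscaled CPM in WT and 8.06 to 13.3 in KO, and these ranges overlap. In WT Spc the 10 genes held 6.57 to 20.2 unscaled CPM, and in KO Spc 67.6 to 296 unscaled CPM, so that the lowest KO library lay above the highest WT library. In CPM scaled by TMM, which corrects for library composition, over all 14 libraries, the sums were 6.49 ± 2.25 (SD, n = 3) in WT Spg, 9.5 ± 2.46 (n = 3) in KO Spg, 14.6 ± 6.2 (n = 4) in WT Spc and 144 ± 75.4 (n = 4) in KO Spc. In a bulk library, fewer cells of a type and less RNA per cell cannot be told apart. These sums are descriptions and carry no test.

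**Figure D1:**
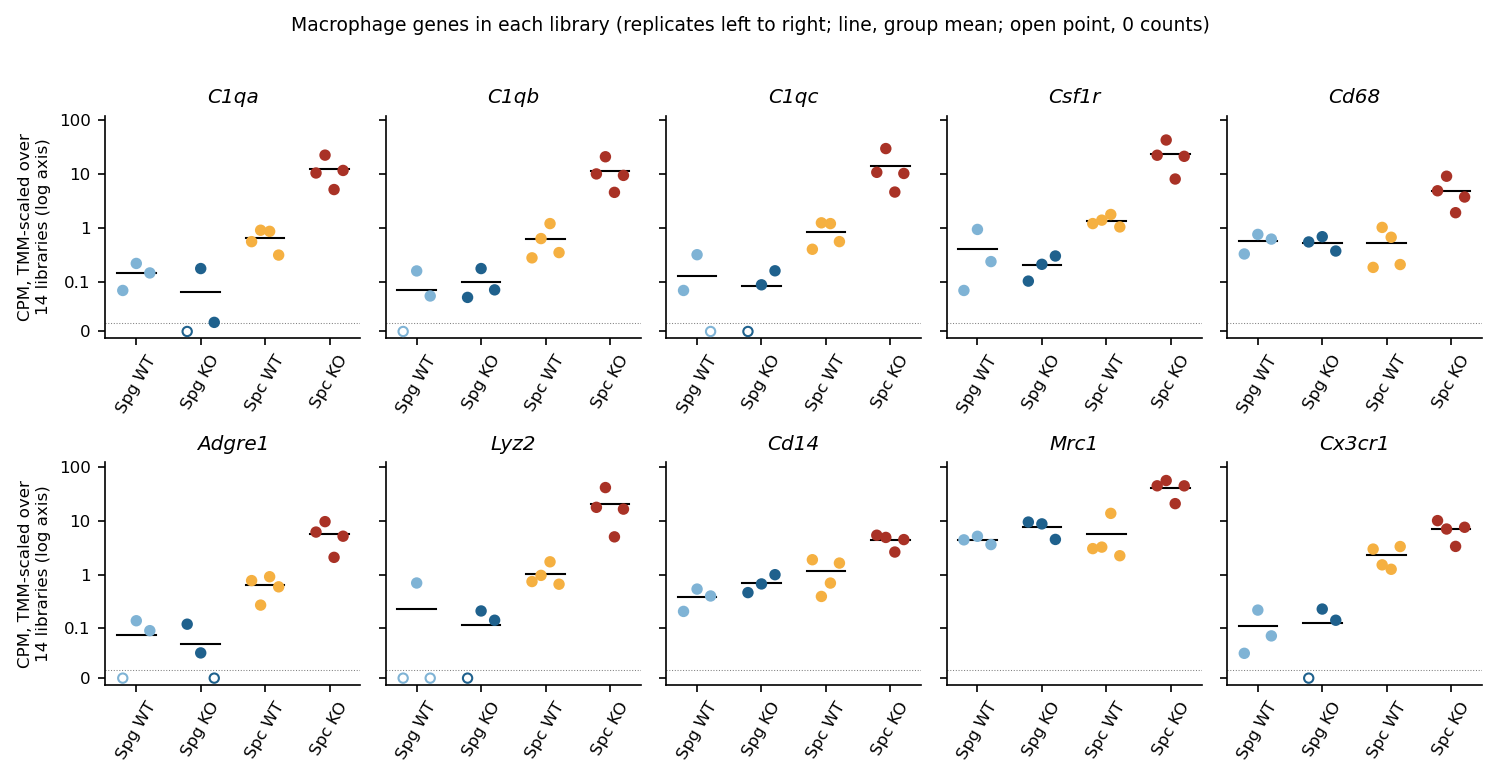
Each panel is 1 of the 10 macrophage genes, each point is 1 library (CPM on a log axis, TMM-scaled over 14 libraries), and each line is the mean of its group. The KO Spc libraries stand above the other groups in most panels, while the Cx3cr1 groups nearly touch, Mrc1 is well above the other members in Spg, and open points are libraries with 0 counts.

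KO Spc held more RNA of nearly all of these genes than WT Spc. Of the 10 members, 9 were called higher and 0 lower (edgeR's quasi-likelihood test, Benjamini-Hochberg adjusted p under 0.01 over all features), with fold changes from 3.75 for Cd14 to 19.8 for Lyz2. C1qa, C1qb, Cd68 and Adgre1 had fewer than 10 counts in a WT library and passed the filter on low counts through the KO libraries. Their calls are therefore no support for a difference by themselves, though their counts lie apart between the groups. Fewer members were called with replicates 1 and 4 summed, as given below. Many other features moved in this comparison as well: 57.4% of 22848 were called in either direction, and 27.4% were called higher. For 9 members the lowest KO library was above the highest WT library in CPM, and this held for 33.7% of all features. The members' median log2 fold change was 3.65, beside 0.11 over all features. Scaled by library totals the median of all genes was 0.79 and that of the members 4.30, so the members stood 3.54 above all genes with TMM and 3.51 with totals. With totals, 62.7% of the calls over all features were higher in KO, against 47.7% with TMM.

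Csf1r, the receptor for CSF1 and IL-34 on which macrophages depend (chromosome 18, 61100598 to 61132149), had 1101, 2371, 422 and 1041 counts in KO Spc (replicates 1 to 4) and 39, 46, 74 and 30 in WT Spc. The groups lie far apart, with KO replicate 2 highest and KO replicate 3 lowest. The fold change was 17.6 (95% interval 7.95 to 39; log2 4.14, SE 0.51; adjusted p = 9.36e-05 by edgeR).

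The C1q chains had similar fold changes between the Spc genotypes. Their order over the KO Spc libraries was shared by most other members, and in WT Spc the order by CPM differed between the chains. C1qa had 513, 1243, 269 and 568 counts in KO and 18, 30, 36 and 9 in WT Spc. C1qb had 495, 1163, 239 and 461 counts in KO and 9, 21, 50 and 10 in WT Spc. C1qc had 528, 1645, 242 and 500 counts in KO and 13, 41, 50 and 16 in WT Spc. In each chain KO replicate 2 was highest, KO replicate 3 lowest, and replicates 1 and 4 lay near each other. The log2 fold changes were 4.25 (SE 0.56) for C1qa, 4.20 (SE 0.63) for C1qb and 4.04 (SE 0.65) for C1qc, with adjusted p, by edgeR, of 0.000126, 0.000277 and 0.000404. Within a KO Spc library each chain made up a similar part of the C1q counts, 30.7 to 37.1% for C1qa, 28.7 to 32.2% for C1qb and 32.3 to 40.6% for C1qc. The chains assemble into 1 protein, but these shares are not corrected for exon length. C1qc has 1931 exon bases, against 1040 for C1qa and 1088 for C1qb. Per kilobase its mean in KO Spc was lower, 7.12 CPM per kb against 11.8 and 10.3, with overlapping ranges. In WT Spc, where all chains together had only 35 to 136 counts in a library, the shares spread from 22.5 to 45.7%.

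Lyz2, the lysozyme of macrophages and other myeloid cells, had the largest fold change and the largest spread. Its counts were 872, 2285, 262 and 803 in KO and 24, 32, 72 and 19 in WT Spc. KO replicate 2 held 8.72 times the counts of KO replicate 3, the widest ratio of any member in that group. The log2 fold change was 4.30 (SE 0.65; adjusted p = 0.000287 by edgeR). Cd68, a glycoprotein of the membrane of lysosomes and endosomes in phagocytes, had 241, 506, 100 and 183 counts in KO and 6, 34, 28 and 6 in WT Spc. Its log2 fold change was 3.25 (SE 0.67; adjusted p = 0.00176 by edgeR), and with replicates 1 and 4 summed it just missed the threshold (adjusted p = 0.0102).

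Adgre1, which encodes the F4/80 antigen used to stain mouse macrophages, had 303, 533, 109 and 252 counts in KO and 25, 9, 38 and 17 in WT Spc, and its log2 fold change was 3.17 (SE 0.57; adjusted p = 0.000746 by edgeR). Mrc1, the mannose receptor, which some endothelia also carry, had 2181, 3083, 1082 and 2161 counts in KO Spc and 98, 107, 567 and 64 in WT Spc. Its groups do not overlap, but WT replicate 3 stood far above the other WT libraries. The log2 fold change of Mrc1 was 2.93 (SE 0.60; adjusted p = 0.0017 by edgeR) and 3.88 without WT replicate 3. With replicates 1 and 4 summed Mrc1 missed the threshold as well (adjusted p = 0.0104).

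Cd14 and Cx3cr1 had the smallest changes. Cd14, the co-receptor that passes bacterial endotoxin to TLR4 (chromosome 18, 36725067 to 36726798), had 265, 272, 137 and 218 counts in KO Spc and 61, 13, 29 and 47 in WT Spc, with a log2 fold change of 1.91 (SE 0.54; adjusted p = 0.00967 by edgeR). That call stood at the threshold and was lost in 9 of 15 alternative settings, with adjusted p from 0.00123 to 0.027. Cx3cr1, the fractalkine receptor of monocytes and of some tissue macrophages, had 494, 389, 174 and 369 counts in KO and 96, 50, 52 and 95 in WT Spc. Scaled over the Spc libraries, its lowest KO library fell within the WT range, and scaled over all 14 libraries the 2 groups all but touched (3.32 CPM in KO replicate 3 and 3.3 CPM in WT replicate 4). Its fold change of 3.09 (95% interval 1.47 to 6.49; log2 1.63) did not pass the test (edgeR adjusted p = 0.0119), and did so in 4 of the 15 settings.

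The order of the KO Spc libraries was much the same from gene to gene. By CPM, replicate 2 was highest for 8 of 10 members and replicate 1 for the other 2, Cd14 and Cx3cr1, and replicate 3 was lowest for all 10. The summed level was 141, 242, 57.9 and 133 CPM in KO replicates 1 to 4 and 12, 11.5, 23.9 and 10.9 CPM in WT replicates 1 to 4. Leaving out 1 library at a time kept 8 to 10 members called. With replicates 1 and 4 summed, 6 were called. The share of all features called was 45.6 to 60.5% with 1 library left out and 38.2% with the sums, against 57.4%.

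**Figure D2:**
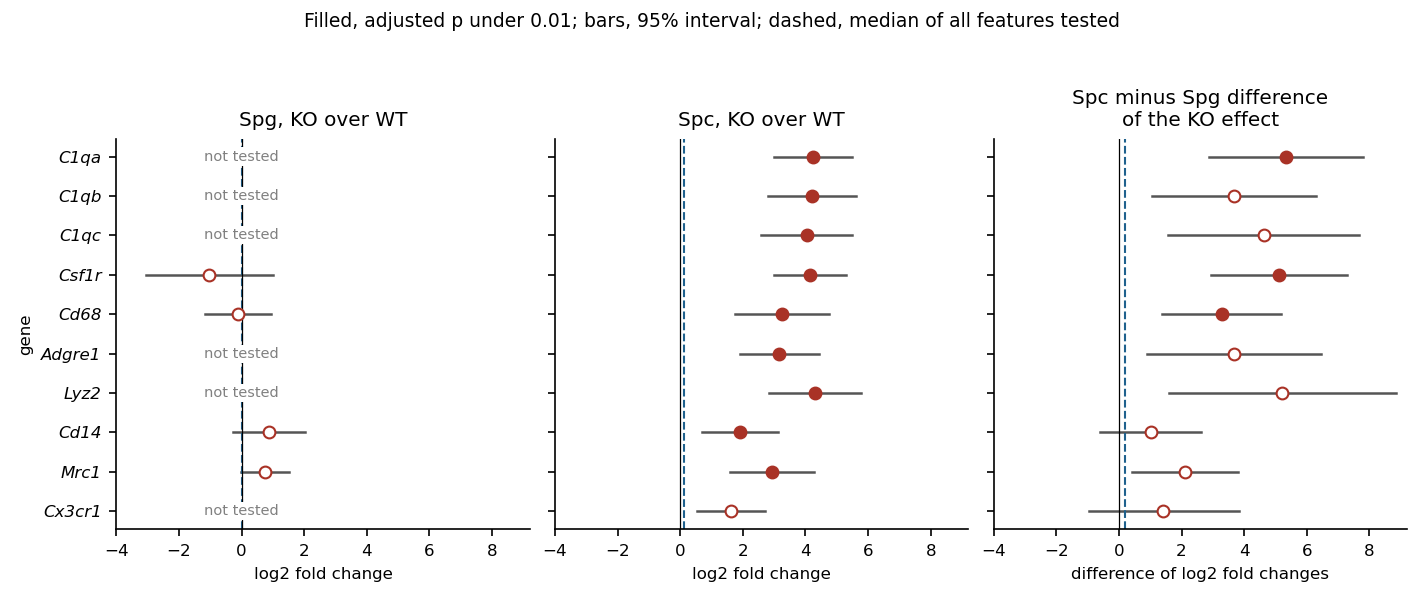
Points are log2 fold changes of the 10 members (left, Spg; middle, Spc; right, the difference of the KO effect between them), bars their 95% intervals, and filled points passed an adjusted p under 0.01. In Spc 9 members are filled and lie to the right of the dashed median of all features (0.11), while in Spg 4 members were tested and none is filled.

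In Spg no member that could be tested was called different between the genotypes. Only 4 members passed the filter on low counts, and 0 of them were called, in a comparison in which 0.107% of 21580 features were called (7.29% at an unadjusted p under 0.05, while DESeq2's Wald test called 0 members and 2.49% of features, 156 higher and 382 lower). Mrc1 was the one member with more than 60 counts in a Spg library. It had 548, 493 and 252 counts in KO and 254, 257 and 197 in WT Spg, so that KO replicates 1 and 2 lay well above WT and KO replicate 3 beside it. The log2 fold change was 0.75 (95% interval -0.03 to 1.53; edgeR adjusted p = 0.727), and the unadjusted p was 0.057. Spg libraries can be set side by side by replicate number, although the numbers are not shown to pair them. In 3 of 3 such pairs KO was above WT for Mrc1 (9.38 and 4.39, 8.68 and 5.11, and 4.47 and 3.59 CPM). With the replicate number as a block its log2 fold change was 0.70 (SE 0.23, adjusted p = 0.288 by edgeR).

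Cd14 had 27, 38 and 56 counts in KO and 12, 27 and 22 in WT Spg, a log2 fold change of 0.87 (interval -0.28 to 2.02; adjusted p = 0.93 by edgeR). It too was higher in KO in 3 of 3 pairs, and the block gave 0.89 (SE 0.43; adjusted p = 0.568). Cd68 had 32, 39 and 21 counts in KO and 19, 38 and 34 in WT Spg, a log2 fold change of -0.11 (interval -1.16 to 0.94). Csf1r had 6, 12 and 17 counts in KO and 4, 47 and 13 in WT Spg. Its log2 fold change of -1.03 (interval -3.06 to 1.01) rested on WT replicate 2 and became 0.43 without it. These intervals are wide and do not show that the genotypes were alike.

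The remaining 6 members had too few counts to be tested in Spg. C1qa had 0, 10 and 1 counts in KO and 4, 11 and 8 in WT, C1qb had 3, 10 and 4 in KO and 0, 8 and 3 in WT, and C1qc had 0, 5 and 9 in KO and 4, 16 and 0 in WT. Lyz2 had 0, 12 and 8 counts in KO and 0, 35 and 0 in WT Spg. Cx3cr1 had 0, 13 and 8 counts in KO and 2, 11 and 4 in WT, and Adgre1 had 7, 2 and 0 in KO and 0, 7 and 5 in WT. WT replicate 2 was the highest WT Spg library by CPM for 10 of 10 members, and KO replicate 1 had 0 counts for 4 members. The same WT library had the highest summed pachytene markers among Spg, 1780 unscaled CPM against 526 and 247 in the other WT libraries and 136 to 169 in KO. The part of these cells in the member counts was not tested.

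Whether KO acted differently at the 2 stages was tested in 1 fit over the 14 libraries. The difference of the log2 KO effect, Spc minus Spg, was called for 3 of 10 members, all higher, in a comparison in which 10.7% of 25318 features were called higher and 24.9% in either direction. These were C1qa (5.34, SE 1.15, edgeR adjusted p = 0.00284), Csf1r (5.11, SE 1.01, adjusted p = 0.00178) and Cd68 (3.29, SE 0.89, adjusted p = 0.00937). C1qa was too low to be tested in Spg alone and passed the filter of this fit through the Spc libraries, whereas Csf1r and Cd68 were tested in both stages. The call of C1qa is therefore no support for a difference. Csf1r passed in each of 21 alternative settings, with 3.75 without WT Spg replicate 2, and Cd68 did not in 11 of them (adjusted p from 0.000515 to 0.0232). Among the other members the difference ran from 1.02 for Cd14 (95% interval -0.59 to 2.63) to 5.22 for Lyz2 (interval 1.59 to 8.84). The value of Lyz2 rested on WT Spg replicate 2, which held all 35 WT Spg counts of the gene, and became -1.29 without that library. Of the calls over all features 42.9% were higher with TMM and 71.1% with library totals, and 3 members were called with either.

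Spc and Spg libraries were also compared within each genotype, where the cell stage, the age of the mice and the sort differ together and cannot be told apart. C1qa, C1qb, C1qc, Adgre1, Lyz2 and Cx3cr1 were too low to be tested in Spg alone and passed the filter of the joint fit through the Spc libraries, so their calls in it cannot be read as support for a difference. In WT, 3 of 10 members were called higher in Spc, Cx3cr1 (log2 4.36, SE 0.86, edgeR adjusted p = 0.000551), C1qb (3.12, SE 0.87, adjusted p = 0.00625) and Adgre1 (3.04, SE 0.90, adjusted p = 0.00857), where 28.9% of features were called higher, a share close to that of the members. All 3 are among the 6 genes that passed the filter in this way. Adgre1 was lost in 14 and C1qb in 8 of 21 alternative settings. Without WT Spg replicate 2, 5 members were called, and 1 each without WT Spg replicate 1 or 3, WT Spc replicate 3, or KO Spc replicate 1 or 4. Of all features, 46.2% were called without WT Spg replicate 2 and 41.4 to 54.5% in the other 5 of these fits, against 51.4%. With library totals 1 member was called, and 34.4% of the calls over all features were higher in Spc against 56.2% with TMM. Cd68 (log2 -0.11, interval -1.45 to 1.24) and Mrc1 (0.34, interval -0.85 to 1.53) had estimates near 0 in that comparison.

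In KO, 8 of 10 members were called higher in Spc than in Spg, against 2.95% of all features, and 6 of the 8 are those that passed the filter through Spc. The other 2 were Csf1r and Cd68. The log2 differences were 7.53 for C1qa (SE 0.97, edgeR adjusted p = 0.000558), 7.38 for Lyz2, 7.34 for C1qc, 6.82 for Csf1r, 6.78 for C1qb, 6.71 for Adgre1, 5.79 for Cx3cr1 and 3.19 for Cd68 (SE 0.67, adjusted p = 0.00988). Cd14 (2.61, adjusted p = 0.0113) and Mrc1 (2.45, adjusted p = 0.0222) were not called. The largest of these values are set against 9 to 35 counts summed over the 3 KO Spg libraries, and their intervals are wide (5.45 to 9.61 for C1qa and 4.24 to 10.52 for Lyz2). Leaving out KO Spg replicate 1, 2 or 3 left 5, 3 or 2 members called, while the calls over all features fell from 2.99% to 0.832, 0.605 and 0.428%.

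The members also differed in how much each contributed. Per kilobase of exon, Lyz2 (15.2 ± 11.5 CPM per kb, SD, n = 4), C1qa (11.8 ± 6.91) and C1qb (10.3 ± 6.29) had the highest levels in KO Spc, followed by C1qc (7.12 ± 5.63), Mrc1 (6.44 ± 2.29), Csf1r (4.06 ± 2.46), Cd68 (3.89 ± 2.42), Cd14 (2.49 ± 0.69), Adgre1 (1.77 ± 0.951) and Cx3cr1 (1.54 ± 0.613). Each neighbouring pair in that order had overlapping ranges over the 4 libraries. In WT Spc the levels per kilobase ran from 0.196 ± 0.0852 for Adgre1 to 0.865 ± 0.846 for Mrc1, again with overlap between neighbours. In Spg, Mrc1 led with 0.685 ± 0.12 in WT and 1.18 ± 0.416 in KO (n = 3), and was apart from the next member, Cd68 (0.426 ± 0.125), in KO only.

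As a share of the members' own counts, Mrc1 made up 56.2 to 84.9% in WT Spg and 67 to 88% in KO Spg, but 20.4 to 56.9% in WT Spc and 22.9 to 35.6% in KO Spc. Csf1r took 13.9 to 17.6% in KO Spc and 7.43 to 12% in WT Spc, and Lyz2 8.63 to 16.9% and 6.07 to 8.36%, so that both had a larger share in each KO library than in each WT library. Cx3cr1 and Cd14 went the other way in the mean. Cx3cr1 held 24.7, 13.1, 5.22 and 30.4% of the member counts in WT Spc replicates 1 to 4 and 2.88 to 7.06% in KO Spc. Cd14 held 15.7, 3.39, 2.91 and 15% in WT Spc and 2.02 to 4.51% in KO. The WT libraries with the high shares of both were replicates 1 and 4, the pair that was much alike, whereas Mrc1 had its highest WT Spc share, 56.9%, in replicate 3.

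**Figure D3:**
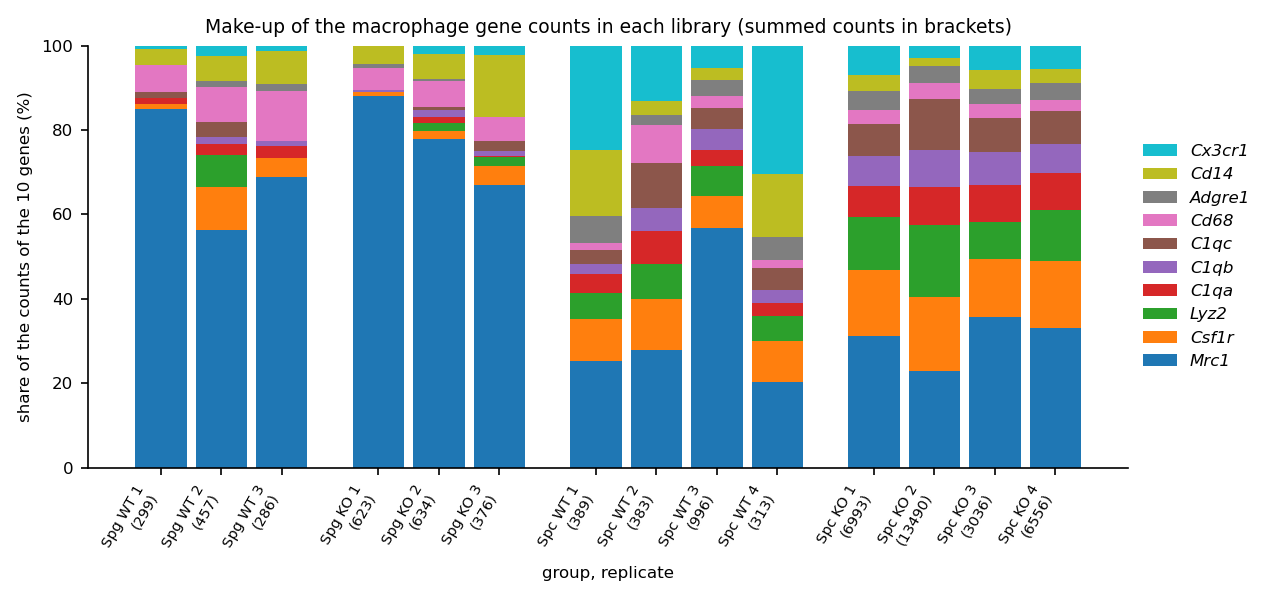
Each bar is 1 library and shows the share of each gene in the summed counts of the 10 macrophage genes, with the summed count in brackets. The 4 KO Spc bars have similar make-up although their sums run from 3036 to 13490, the Spg bars are mostly Mrc1, and WT Spc replicates 1 and 4 carry large shares of Cx3cr1 and Cd14.

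Other genes of macrophages and of the pathways the members belong to were read from fixed lists in the same Spc comparison. All 6 myeloid transcription factors listed were called higher in KO Spc (median log2 4.00). Among the 3 with the most counts, Maf (413 to 4555 counts in KO and 24 to 43 in WT) rose by 5.90 on the log2 scale, Irf8, which directs monocyte development, by 4.57, and Cebpa, a factor of the myeloid lineage that other tissues use too, by 4.23. Of 10 markers of tissue-resident macrophages, 7 were tested and called higher (median 4.59). They include Apoe, an abundant lipoprotein of macrophages that many other cells also make (3545 to 18511 counts in KO and 149 to 354 in WT, log2 5.15, SE 0.51, edgeR adjusted p = 2.51e-05), the scavenger receptor Stab1 (4.53) and the efferocytosis receptor Mertk (2.80). Timd4, Ms4a7 and Vsig4 were too low to be tested. Among 5 genes of MHC class II, 4 were called higher (median 3.96), with Cd74 at 4.10 and H2-Aa at 4.33, and H2-Ab1 was not called (-0.22).

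Of the 3 ligands of the member receptors, 2 were called higher in KO Spc. Csf1, a ligand of CSF1R, had 8294, 1500, 612 and 7045 counts in KO replicates 1 to 4 and 30 to 52 in WT Spc (log2 6.25, SE 0.86, edgeR adjusted p = 0.00017). Its highest KO library was replicate 1, whereas most members were highest in replicate 2. Cx3cl1, the ligand of CX3CR1, had 344 to 1469 and 9 to 45 (4.64, adjusted p = 0.000236). Il34, the other CSF1R ligand, had 2 to 36 counts in KO and 12 to 60 in WT and was not called (-1.89, adjusted p = 0.0713). Of the partners of C1q in the complement pathway, 8 of 9 tested were called higher (median 5.23), among them the C1 proteases C1s1 (5.83) and C1ra (5.97) and the C1 inhibitor Serping1 (5.38), which had 2230 to 23850 counts in KO and 151 to 255 in WT Spc and which fibroblast-like cells also make. The exception, C4b, had a log2 fold change of -1.88 and was not called (adjusted p = 0.0692 by edgeR). Of the endotoxin receptor genes that work with CD14, 3 of 5 were called higher, Lbp (4.97) and Tlr2 (5.37) among them, and the adaptor Myd88 fell by 1.99. Of 8 lysosomal genes, 7 were called higher (median 3.21), with Lamp2 at 3.60 and Ctsl at 1.85, and Lamp1 fell by 1.53.

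Some genes usually assigned to leukocytes fell in KO Spc. Fcgr3, an IgG receptor of myeloid cells, had 103 to 327 counts in KO and 1481 to 2515 in WT Spc and had a log2 fold change of -3.92 (SE 0.38; adjusted p = 2.13e-05 by edgeR), while the other 6 genes of its list of Fc receptors and DAP12 signalling were called higher, Fcgr2b (5.47) and Syk (3.18) among them. Aif1, which encodes the macrophage antigen IBA1, had 35 to 97 counts in KO and 134 to 2252 in WT Spc and fell by 4.59 (SE 0.73, adjusted p = 0.000368), while the other 5 pan-leukocyte genes were called higher, Laptm5 (3.92) and Coro1a (3.41) among them. Single T cell and granulocyte genes went the same way as Fcgr3 and Aif1. Cd3d of T cells fell by 5.40 and the neutrophil peroxidase gene Mpo by 9.11, from 103 to 212 counts in WT to 0 to 1 in KO Spc. No other listed T cell or neutrophil gene was called, with Cd3e at 1.71 (adjusted p = 0.0439), and none of the mast cell genes reached 10 counts in a library.

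**Figure D4:**
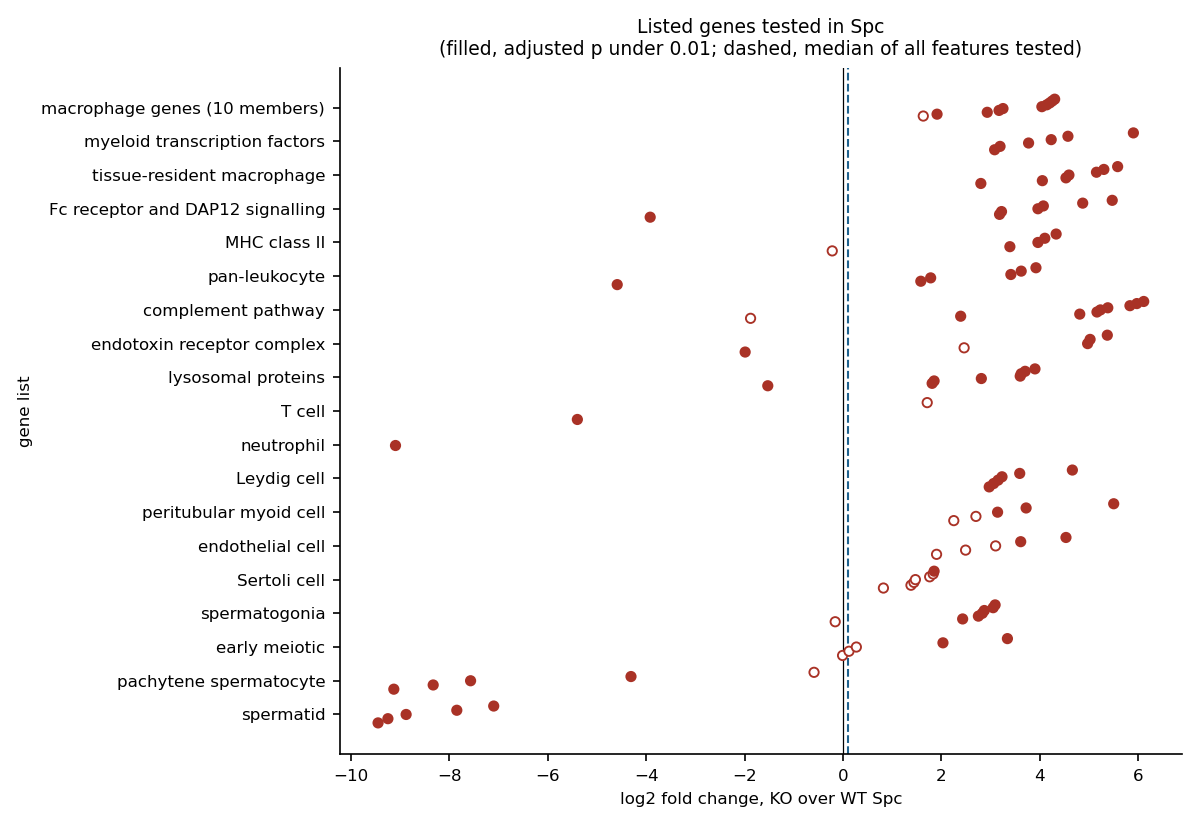
Each point is a tested gene of a list, placed by its log2 fold change of KO over WT Spc, and filled where the adjusted p was under 0.01. The macrophage lists lie mostly between 2 and 6 to the right of the dashed median of all features, Fcgr3 and Aif1 stand alone on the left of their lists, and the Leydig, peritubular and endothelial lists lie to the right as well.

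Markers of other somatic cells of the testis were counted in the same comparison, in which 27.4% of all features were called higher. All 6 Leydig cell genes were called higher (median 3.19), as were 3 of 5 of peritubular myoid cells (3.14), 2 of 5 of endothelial cells (3.10) and 1 of 7 of Sertoli cells (1.47, Ctsl, which is also on the lysosomal list). The cell types were not tested against each other. In unscaled CPM, the summed Leydig genes held 480, 79, 91.5 and 400 in KO replicates 1 to 4 and 9.41 to 23 in WT Spc. The peritubular genes held 77.3, 211, 20.3 and 78.2 in KO and 2.18 to 7.38 in WT, and the endothelial genes 158, 123, 34.2 and 141 in KO and 3.41 to 7.74 in WT. The Sertoli genes held 440 to 1260 unscaled CPM in KO and 84.5 to 495 in WT. The peritubular sum was highest in KO replicate 2, like that of the macrophage genes, whereas the Leydig, endothelial, complement and tissue-resident macrophage sums were highest in replicate 1. The part that these cells, or the share of somatic cells in the sort, had in the member counts was not tested. Erythroid genes gave 0 calls (Hbb-bs 2.15, adjusted p = 0.139), and 6 of 7 spermatogonial genes were called higher (median 2.83), 2 of 5 early meiotic genes higher (0.27), 4 of 5 pachytene genes lower (-7.57) and 5 of 5 spermatid genes lower (-8.88). Of the genes whose proteins served in the Spg sort, B2m rose by 2.93 (adjusted p = 0.000421) and Epcam had a log2 fold change of 0.64 (adjusted p = 0.0487).

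In Spg none of these lists gave a call. The myeloid transcription factors were present there nonetheless, at 18.1 to 32.2 unscaled CPM in WT and 18.8 to 30.5 in KO, above their level of 1.76 to 5.17 in WT Spc. Cebpa had 188 to 334 counts in WT and 245 to 418 in KO Spg (log2 0.23, SE 0.30). In WT, 4 of the 6 factors were called lower in Spc than in Spg (22.5% of features were), among them Cebpa (-2.84) and Irf8 (-2.97). Sertoli genes summed to 458 to 1850 unscaled CPM over the 6 Spg libraries, and Leydig genes to 4.47 to 14.7.

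**Figure D5:**
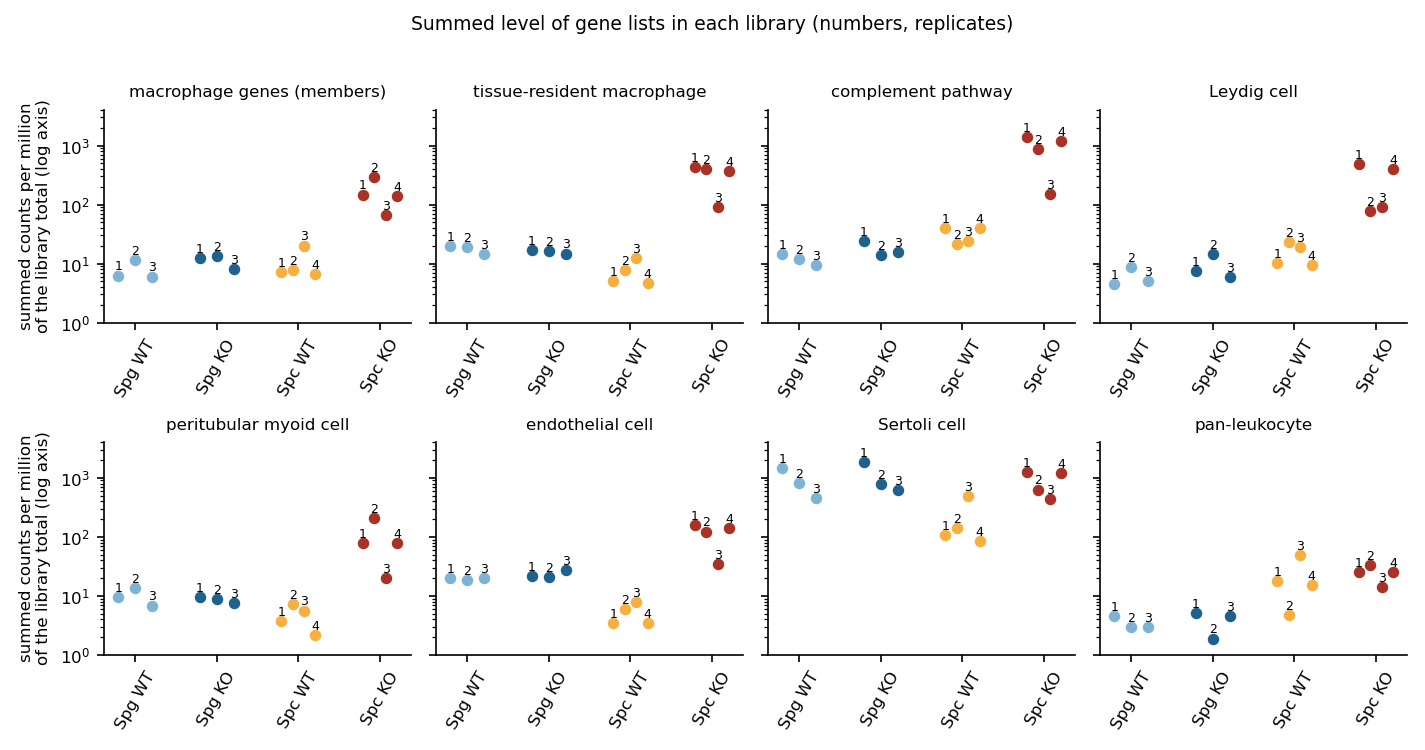
Each panel is a gene list, each point the summed level of that list in unscaled CPM in 1 library (log axis), numbered by replicate. The macrophage genes, Leydig, peritubular, endothelial and complement lists are each higher in all 4 KO Spc libraries than in all 4 WT Spc libraries. Of these, the macrophage genes and the peritubular list are highest in KO replicate 2, and the Leydig, endothelial and complement lists in replicate 1. The pan-leukocyte list overlaps between the Spc genotypes and among KO Spc is highest in replicate 2.

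The genes whose pattern over the 14 libraries was closest to the mean profile of the members were, in order, Laptm5, Ctss, Steap4, Plek, Sp100, Ifi207, Iigp1, Ly6c1, Cbr2 and Tmem119, of 17384 features with a mean count of at least 50. Closeness is the root mean square distance between log2 CPM profiles (pseudocount 0.5, each centred over the libraries), and ran from 0.297 to 0.436 for these genes. Laptm5, a lysosomal membrane protein of blood cells, had 0.0942 ± 0.0899 CPM in WT and 0.0935 ± 0.0282 CPM in KO Spg, 0.695 ± 0.319 in WT Spc and 10.4 ± 3.69 in KO Spc. Ctss, a protease of antigen-presenting cells, had 0.618 ± 0.262 CPM in WT and 9.11 ± 3.56 CPM in KO Spc. Plek, the platelet and leukocyte protein pleckstrin, went from 0.183 ± 0.16 to 5.25 ± 2.62 CPM. Among the members Adgre1 (0.257) and C1qb (0.292) lay closest to their common profile, and Cd14 (0.761), Mrc1 (0.735) and Cx3cr1 (0.722) farthest, with 119 to 150 other features closer than each of these.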

How the data were processed

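Polyadenylated RNA of 14 libraries of sorted germ cells was sequenced with a stranded kit. Per the labels and methods, the authors aligned reads to GRCm38 (GENCODE M25) with STAR 2.7.3a, kept up to 100 alignments per read, and deposited raw counts per gene and TE subfamily from TEtranscripts. The tables also hold the authors' DESeq2 fold changes and p-values, which were not used. Spg columns numbered rep4 belong to samples titled replicate 3. Positions and exon lengths came from GENCODE M21.

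Counts were fitted with edgeR 4.0.16 under R 4.3.3, by two-sided quasi-likelihood tests after filterByExpr and TMM scaling, with p-values adjusted over all features, per stage, and over 14 libraries for differences between stages. Calls needed an adjusted p under 0.01. SE is the absolute log2 fold change over the square root of F. The settings tried were DESeq2 1.42.0, other scalings, no filter, a replicate block, left-out libraries and summed replicates 1 and 4. Deviations of same-numbered KO and WT Spg libraries correlated at 0.519, 0.166 and 0.181. KO replicate 2 and WT replicate 3 of Spg, of unlike number, reached 0.263. Same-numbered Spc libraries ran from -0.00511 to 0.208. The numbers are therefore not shown to pair the libraries in either stage.

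On simulated counts the Spc test called 22.9% of genes changed by 2 and 61.5% of those changed by 3 on the log2 scale, and the test of the difference 5.1% and 28.6%. The members and lists were chosen with earlier results of these data known. Named from each list are at most 3 genes, those with the most counts, besides genes singled out after their values were seen (Timd4, Ms4a7, Vsig4, Mpo, C4b). The genes of the likeness ranking follow a fixed rule. Results for some listed genes are not reported here.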

Additional observations from a re-analysis of the deposited data

Results flagged for a closer look

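Among 22 sets of 4 Spc libraries (10 genes and their sum in both genotypes), 2 held a library far from the other 3 by Dixon's test, where chance gives about 1 in 20. Both were WT Spc replicate 3, and they are 1 observation, since Mrc1 made up 56.9% of the summed counts in that library. Its Mrc1 level was 13.6 CPM, and 2.23 to 3.22 CPM in the other WT Spc libraries. Its summed level of the 10 genes was 23.9 CPM, and 10.9 to 12 CPM in the others. The same library had the highest sum of spermatid genes (1180 unscaled CPM) and of Sertoli genes (495 unscaled CPM) among WT Spc.

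The KO effect differed between Spc and Spg by 5.11 on the log2 scale for Csf1r (3.75 without WT Spg replicate 2) and 3.29 for Cd68 (edgeR's quasi-likelihood test of the difference itself). The call of Cd68 was lost in 11 of 21 alternative settings. C1qa had an estimate of 5.34 that also passed, but it rested in Spg on 23 counts in WT and 11 in KO over 3 libraries each and passed the filter on low counts through Spc, so that its call is no support for a difference.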

How the results depend on the processing

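Under the alternative settings, 0 members were called in Spg in each, and 6 to 10 in Spc. For the difference of the KO effect, DESeq2 called 7 members (and 39.5% of all features, against 24.9%) and an adjusted p under 0.05 gave 8 (44.8% of features), and leaving out 1 library gave 2 to 4 (14.6 to 36.4% of features). For Spc against Spg in WT, library totals gave 1, DESeq2 6 (58.8% of features, against 51.4%), an adjusted p under 0.05 gave 7 (64.1%), and leaving out 1 library 1 to 5. In KO, leaving out 1 library gave 2 to 8. The summed level, 3.21 higher on the log2 scale in KO Spc, was 3.93 with library totals.

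Leaving out 1 library moved members that were not called across 0: in Spg, Csf1r ran from -1.57 to 0.43 and Cd68 from -0.41 to 0.18, Lyz2 in the difference of the KO effect from -1.29 to 6.02, and, in Spc against Spg in WT, Cd68 from -0.63 to 0.18 and Mrc1 from -0.61 to 0.61. Without WT Spg replicate 2, Csf1r (0.43) and Cd68 (0.18) turned in Spg, as did Lyz2 (-1.29) in the difference of the KO effect and Cd68 (0.01) in Spc against Spg in WT. Cd68 turned in Spg without KO replicate 3 (0.09), and in Spc against Spg in WT without WT Spc replicate 1 (0.18) or 4 (0.16) and with replicates 1 and 4 summed (0.16). Mrc1 turned in the latter comparison with library totals (-0.32) and without WT Spc replicate 3 (-0.61). The causes were not tested.

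The replicate block left 0 calls in Spg, where the numbers are not shown to pair the libraries. In Spc, where the numbers do not pair the libraries, it gave 9 calls (50.9% of features, against 57.4%), losing Cd14 (adjusted p = 0.0104) and adding Cx3cr1 (adjusted p = 0.00635). It gave 3 calls for the difference, 2 for Spc against Spg in WT and 7 in KO, where it called 25.1, 47.2 and 1.49% of all features. In these joint fits the block grouped Spg and Spc libraries of the same number, from mice of different ages. The numbers carry no pairing across the stages, so the block is no check of these comparisons. In Spg, 6 members had too few counts to be tested, at library totals of 40555726 to 49332778 counts, against 44883293 to 53323651 in Spc.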
